A study of Arabidopsis thaliana with 4 samples.

Results

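THI2.1 and PDF1.2A are Arabidopsis thaliana genes for small secreted antimicrobial peptides, the former a thionin and the latter a plant defensin. They were taken as every probe set whose only annotated gene is THI2.1 or PDF1.2A, which gave 1 probe set for each, 2 of the 13513 probe sets with a single gene. The annotation supplied with the arrays writes the defensin as PDF1.2, and the RefSeq gene table (TAIR10.1) lists PDF1.2A among its synonyms. THI2.1 is locus AT1G72260 on chromosome 1 and PDF1.2A is locus AT5G44420 on chromosome 5.

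The study compared shoots of plants overexpressing the basic helix-loop-helix transcription factor bHLH122 with wild-type shoots, both in the Col-0 background, on 4 Affymetrix arrays, 2 per genotype. All plants were stratified for 96 h, kept on MS medium for 1 week and in soil for 2 weeks, with no further treatment named. In the source labels each overexpressor array is a line of its own, but their titles both name line 18, so line could not be modelled, and the promoter of the transgene is not given in the sources used here. Whether the wild-type arrays stem from different cultures is not stated, and the p-values thus reflect only the variation among these 4 arrays, possibly technical.

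Thionins and defensins are short, cysteine-rich proteins that are made with a signal peptide and act against fungi and bacteria by disturbing their membranes. In Arabidopsis leaves THI2.1 is induced by methyl jasmonate and by fungal infection, and its transcript is also known from flowers and siliques. PDF1.2A is the usual marker of the branch of the defence response in which jasmonate and ethylene act together through ERF transcription factors, while wounding without ethylene favours a second branch run by MYC2 and its relatives. Salicylate signalling is known to repress PDF1.2A.

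Both transcripts were lower in the overexpressor shoots. The THI2.1 signal, in the arrays' linear units after the authors' normalization, was 31.4 and 31.6 in the overexpressors, against 130.9 and 123.3 in wild type. On the log2 scale these are 4.97 and 4.98 against 7.03 and 6.95. The overexpressor arrays differed by 0.0108 and the wild-type arrays by 0.0867, and the groups lay about 2 units apart without overlap.

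THI2.1 averaged 4.98 ± 0.0077 in the overexpressors (SD, n = 2) and 6.99 ± 0.061 in wild type (SD, n = 2) on the log2 scale. The difference was -2.01 (SE 0.096, 95% interval -2.24 to -1.78, limma adjusted p = 2.28e-04), which is 4.03-fold lower, with an interval from 3.43 to 4.73. Over the 4 pairs of an overexpressor with a wild-type array, the difference ran from -2.06 to -1.96. In bulk shoot RNA, fewer cells that express a gene and less RNA per cell cannot be told apart.

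PDF1.2A had linear signals of 107 and 95.1 in the overexpressors, against 298 and 268 in wild type. Its log2 signals were 6.74 and 6.57 in the overexpressors and 8.22 and 8.06 in wild type. Replicate arrays were 0.170 apart in the overexpressors and 0.155 apart in wild type, wider than for THI2.1 but far narrower than the distance between the genotypes.

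The group means of PDF1.2A were 6.66 ± 0.12 and 8.14 ± 0.11 (SD, n = 2 each). The difference was -1.49 (SE 0.11, 95% interval -1.76 to -1.21, limma adjusted p = 9.56e-04), or 2.80-fold lower with an interval from 2.32 to 3.39. The pairwise differences ran from -1.65 to -1.32. An exact two-sided permutation test over the 4 arrays gave p = 0.333 for each gene, the smallest value that 2 arrays against 2 allow, so the adjusted p-values rest on variance shared between probe sets by limma. With ordinary statistics, which share none, the adjusted p was 0.0828 for THI2.1 and 0.108 for PDF1.2A, and neither passed.

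**Figure D1:**
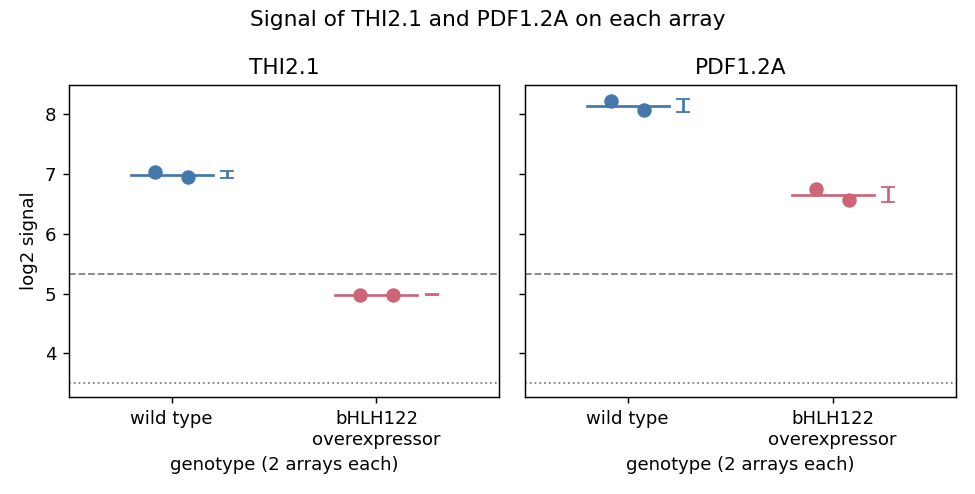
Log2 signal (vertical axis) of THI2.1 and PDF1.2A by genotype. Points are arrays, horizontal lines are means, bars at the side are SDs (n = 2), and the dashed and dotted lines are the median and lower quartile of all tested probe sets averaged over the arrays. The overexpressor points of THI2.1 (4.97 and 4.98) fall just under the dashed median, while those of PDF1.2A (6.74 and 6.57) stay above it.

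The position of each gene within the array moved accordingly. THI2.1 stood at the 70.5 and 69.0 percentiles of all tested probe sets in wild type and at the 46.1 and 46.5 percentiles in the overexpressors. PDF1.2A went from the 83.7 and 82.1 percentiles to 66.3 and 64.5. Both remained above the lower quartile of log2 signal on the overexpressor arrays (3.46 and 3.54), though THI2.1 lay under the array median there. Changes are understated at dim signal, and how far this holds for THI2.1 was not tested.

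The fall of THI2.1 was the larger on every array pair. Its log2 signal minus that of PDF1.2A was -1.77 and -1.59 in the overexpressors, against -1.19 and -1.12 in wild type, a shift of -0.52 that left the groups apart. Differences between probe sets are read here only for their change between genotypes. The exact two-sided permutation p of this shift was again 0.333, the smallest possible, so that test could not have passed here.

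These values stand against a wide background. Of 22746 tested probe sets, 5460 (24.0%) passed the adjusted threshold of 0.05 in limma, with 2684 (11.8%) lower and 2776 (12.2%) higher in the overexpressors. Fewer probe sets were called lower whichever single array was left out. Of all probe sets 412 (1.81%) were at least 2-fold lower with the groups apart, and THI2.1 and PDF1.2A are among them. Counted from the largest fall, THI2.1 was number 82 and PDF1.2A number 167 of all probe sets, or numbers 41 and 89 of those with a single gene.

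Gene length bears on this background. The RefSeq table gives THI2.1 a length of 1113 bp and PDF1.2A 671 bp, introns included, and short genes as a group were lower in the overexpressors. Nuclear probe sets with a single gene within 25% of the length of THI2.1 and within 1 log2 unit of its wild-type signal numbered 336. Of these 159 (47.3%) were called lower, 7 were called higher and the median difference was -0.42. A difference as low as that of THI2.1 or lower was found for 6 (1.79%). Among the 160 such probe sets of at most 1000 bp at a like wild-type signal, 92 (57.5%) were called lower. As low as THI2.1 or lower were 11 of the 160 (6.88%).

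PDF1.2A was set against genes chosen in the same ways. Of 146 single-gene nuclear probe sets of at most 1000 bp with a wild-type signal within 1 log2 unit, 83 (56.8%) were called lower. Another 1 was called higher, and the median difference was -0.46. The value of PDF1.2A was reached or exceeded downward by 15 of them (10.3%). Among the 64 probe sets within 25% of its own length, 9 (14.1%) did so. With the trend on length removed from each array, THI2.1 was lower by a log2 difference of -1.57 (limma adjusted p = 6.19e-04) and PDF1.2A by -1.07 (limma adjusted p = 0.00307). The part of length in the 2 falls was not tested beyond these values.

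**Figure D2:**
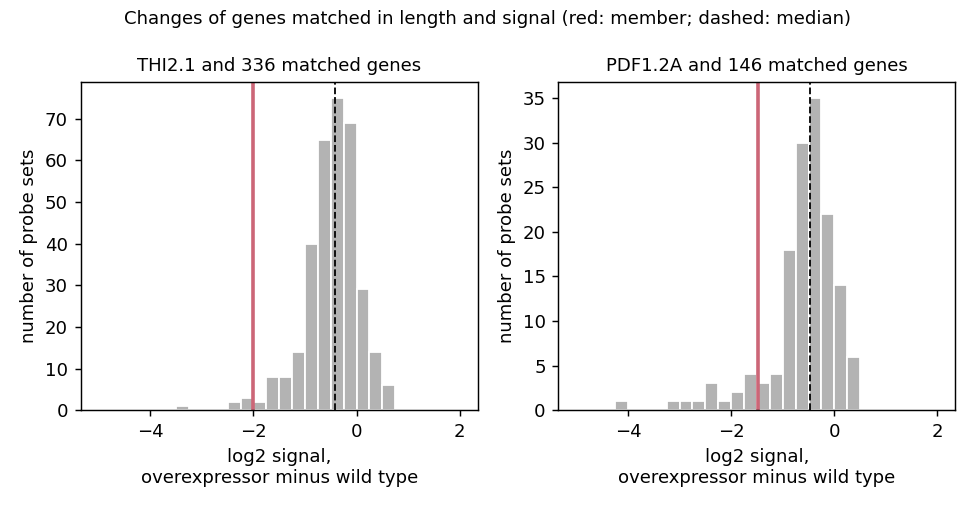
Number of probe sets (vertical axis) by log2 difference, overexpressor minus wild type (horizontal axis). The THI2.1 panel holds 336 nuclear probe sets within 25% of its length and the PDF1.2A panel 146 of at most 1000 bp. All lie within 1 log2 unit of the wild-type signal of the gene, and the length rules of the panels differ. The red lines mark THI2.1 (-2.01) and PDF1.2A (-1.49), and the dashed lines mark the medians of these probe sets (-0.42 and -0.46).

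RNA added to the samples as a control moved in the same direction. The 24 probe sets for poly-A control transcripts, which are spiked in before labelling, all had a lower mean in the overexpressors (mean difference -0.62, range -0.86 to -0.30), as did the 18 for hybridization controls (mean difference -0.27). Centred on the poly-A controls, which shifts all genes by 0.62 relative to the reported scale, THI2.1 had a log2 difference of -1.39 (limma adjusted p = 3.89e-07) and PDF1.2A of -0.87 (limma adjusted p = 0.00206). In that fit limma gave all probe sets a single SE (0.247), so its p-values do not reflect the spread of each gene. There 13885 probe sets were higher and 308 lower, against 2776 and 2684 as reported. Centred on the hybridization controls, the values were -1.74 and -1.21, with 7462 probe sets higher and 1101 lower.

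The integrity of the RNA, read from control probe sets at the 3′ and 5′ ends of actin, GAPDH and ubiquitin transcripts, differed little between the genotypes. The log2 difference between 3′ and 5′ signal changed by -0.14 to 0.056 between genotypes over 6 probe set pairs, and the groups were apart in 1 of the 6.

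**Figure D3:**
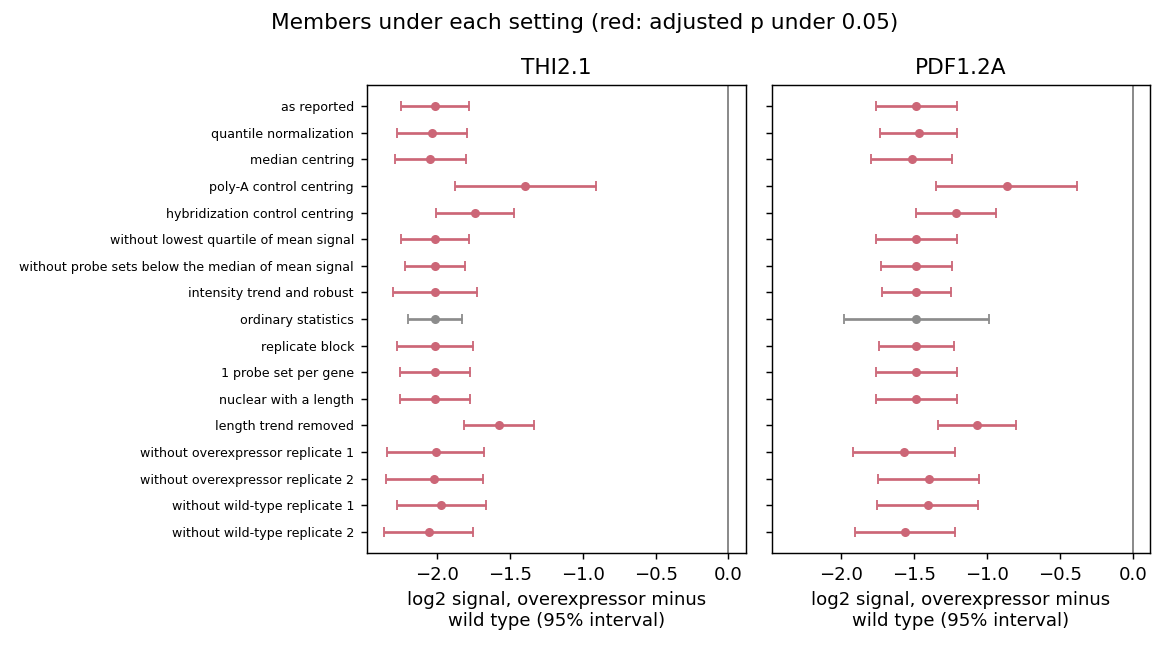
Log2 difference, overexpressor minus wild type (horizontal axis), of THI2.1 and PDF1.2A under each normalization, filter, model and left-out array, with 95% intervals as bars. All points lie left of 0, from -2.05 to -1.39 for THI2.1 and from -1.57 to -0.87 for PDF1.2A, and the grey points mark ordinary statistics, where neither gene passed.

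Related peptide genes were read next. Besides the 2 genes above, 13 genes named THI, PDF or LCR (low-molecular-weight cysteine-rich, a name under which many defensin-like genes were listed) have a probe set of their own. As reported 6 fell, none rose and 7 did not pass, with a median log2 difference of -0.26 against -0.016 for all tested probe sets (11.8% lower), whereas 3 fell and 3 rose when centred on the poly-A controls (median 0.36), and 4 fell and 2 rose when centred on the hybridization controls (median 0.015). Leaving out overexpressor replicate 1, overexpressor replicate 2 or wild-type replicate 1 left 4 falls each time, leaving out wild-type replicate 2 left 3, and so did removal of the length trend. These genes are 542 to 1121 bp long, within the length range where falls were common.

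The closest relative of PDF1.2A on the array is PDF1.2b (locus AT2G26020), which encodes a near-identical defensin. Its log2 signals were 7.07 and 6.86 in the overexpressors and 8.44 and 8.45 in wild type, a difference of -1.48 (SE 0.11, limma adjusted p = 9.12e-04). Its probe set carries the suffix that Affymetrix gives to probes that may also bind other transcripts. Together with PDF1.2c, which lies next to PDF1.2A and has no named probe set, these genes may share signal, so PDF1.2A and PDF1.2b cannot be counted as independent falls.

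The largest fall in the family was that of LCR66, a defensin-like gene that RefSeq also names PDF2.4. It had log2 signals of 4.89 and 4.33 in the overexpressors and 6.87 and 6.74 in wild type, a difference of -2.20 (SE 0.19, limma adjusted p = 0.00139). The overexpressor arrays were well apart for this gene, yet both lay more than 1 unit below wild type. PDF1.4 was dim on every array, with 3.19 and 3.37 against 4.70 and 4.51, and its difference of -1.32 (SE 0.12, limma adjusted p = 0.00153) has overexpressor values below the lower quartile of signal.

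LCR69, also named PDF2.2, had log2 signals of 11.64 and 11.44 in the overexpressors and 12.11 and 12.35 in wild type and fell by 0.70 (SE 0.13, limma adjusted p = 0.0131). Its call was lost without wild-type replicate 2 (-0.57, limma adjusted p = 0.0561), with the length trend removed (-0.39) and with poly-A centring (-0.077). THI2.2, the second measured thionin gene and of nearly the length of THI2.1 at 1121 bp, had 7.93 and 8.0 against 8.14 and 8.27, a difference of -0.24 that did not pass (95% interval -0.49 to 0.0092, limma adjusted p = 0.151). The highest values in the family were those of LCR80 (0.16) and LCR72 (0.10), both dim and neither past the threshold as reported, and PDF2.5 (-0.11) did not pass either.

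**Figure D4:**
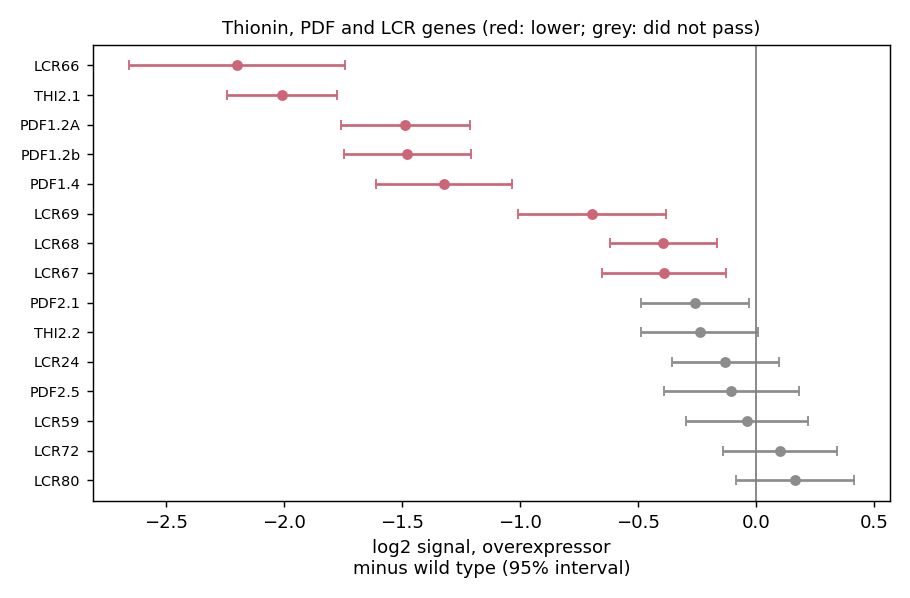
Log2 difference, overexpressor minus wild type (horizontal axis), with 95% intervals as bars, for the 15 measured THI, PDF and LCR genes. Red points passed the adjusted threshold; LCR66 (-2.20), THI2.1 (-2.01), PDF1.2A (-1.49), PDF1.2b (-1.48) and PDF1.4 (-1.32) lie farthest to the left, and 7 grey points did not pass.

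Few other genes of the jasmonate pathway have a named probe set. Over 6 lists covering peptides, jasmonate synthesis, breakdown, perception, and the MYC and ERF branches, 17 genes were measured besides THI2.1 and PDF1.2A. The peptide list, whose genes are short and already counted above, gave 10 of them and 6 falls, that of PDF1.2b included. The jasmonate synthesis list, which includes the regulator ORA47, gave 5 genes with 2 falls and 1 rise. The MYC branch gave 2 that did not pass. Of all 17 genes 8 fell, 1 rose and 8 did not pass (median -0.26), against 11.8% lower and 12.2% higher over all probe sets. With poly-A centring 4 fell and 5 rose, with hybridization control centring 6 fell and 5 rose, without overexpressor replicate 2 the falls numbered 5 and the rises 1, and without wild-type replicate 2 they numbered 4 and 1. Members of the breakdown, perception and ERF branch lists, the JAZ repressors and ORA59 included, are not analysed here. All lists were chosen with earlier results of these data known, so their counts are descriptions only.

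The jasmonate synthesis list holds enzyme genes and the regulator ORA47. Of its 5 measured genes, 2 fell (ORA47 and OPCL1) and 1 rose, beside the same 11.8% and 12.2% over all probe sets. ORA47, an AP2/ERF factor known to activate jasmonate synthesis genes, had log2 signals of 5.25 and 4.85 in the overexpressors and 9.37 and 9.34 in wild type, a difference of -4.30 (limma adjusted p = 9.15e-05). OPCL1, which encodes the ligase that activates the jasmonate precursor OPC-8:0 for its shortening in the peroxisome, fell by 0.71 (SE 0.14, limma adjusted p = 0.0174). JMT, which makes methyl jasmonate, was higher by 0.57 (SE 0.16, limma adjusted p = 0.0473).

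The last 2 calls depended on single arrays. OPCL1 did not pass without overexpressor replicate 2 (-0.64, limma adjusted p = 0.0564), without wild-type replicate 2 (-0.53, limma adjusted p = 0.0566) or with poly-A centring (-0.088), and JMT lost its call without overexpressor replicate 1 (0.45) and without wild-type replicate 1 (0.37). AIM1, a peroxisomal enzyme of fatty acid shortening, had a difference of 0.31 and DGL, a lipase, of -0.12, and neither passed as reported. MYC3 (0.37) and MYC4 (0.44), the measured relatives of MYC2, did not pass as reported and passed with either control centring (0.98 and 1.06 on the poly-A scale).

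Outside jasmonate, the ethylene factor EIN3, which acts above the ERF genes, had log2 signals of 8.88 and 8.84 against 8.80 and 8.78 and did not pass (0.07, 95% interval -0.16 to 0.30, limma adjusted p = 0.652), although on the poly-A scale it was higher (0.69). In the salicylate list GRX480, a glutaredoxin that is induced by salicylate and is known to repress PDF1.2A when overexpressed, had 4.36 and 4.48 against 7.27 and 7.19. This is a difference of -2.81 (SE 0.10, limma adjusted p = 9.25e-05), so the transcript was lower alongside that of PDF1.2A. SAG101 (-0.19) did not pass as reported.

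Of 5 measured wound and touch genes 4 fell, with a median of -2.53, where 11.8% of all probe sets were lower and their median was -0.016. This list was chosen with earlier results of these data known, so the count is a description only. The zinc finger factor STZ had a difference of -3.06, the factor WRKY53 of -2.53, and the calmodulin-like genes CML38 and CML37 of -3.46 and -1.52. Both overexpressor values of CML37 lie below the lower quartile of signal. CML37 did not pass without overexpressor replicate 1 (-1.39, limma adjusted p = 0.0558), and AT1G76640 (-0.07) did not pass as reported. UGT74B1, a glucosinolate synthesis gene, was higher by 0.38 with all arrays, and passed in none of the fits on 3 arrays (0.33 to 0.43).

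**Figure D5:**
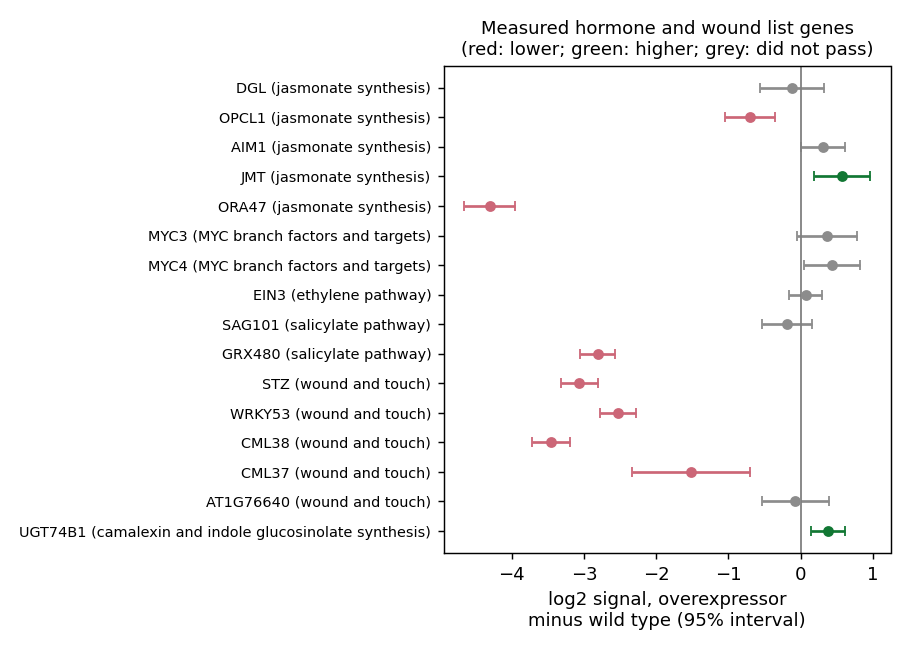
Log2 difference, overexpressor minus wild type (horizontal axis), with 95% intervals as bars, for the measured genes of the jasmonate, ethylene, salicylate, wound and touch, and camalexin and glucosinolate lists. ORA47 (-4.30), CML38 (-3.46), STZ (-3.06), GRX480 (-2.81) and WRKY53 (-2.53) lie farther left than THI2.1 (-2.01).

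The genes whose profile over the 4 arrays was most like that of THI2.1, by Euclidean distance of log2 signals centred on each gene's own mean, were AT1G35210 (distance 0.10), AT4G20420 (0.10), AT5G10695 (0.12), AT2G24600 (0.12) and TET8, a tetraspanin gene (0.13), out of 13355 genes compared. Their differences ran from -2.12 (AT5G10695) to -1.90 (TET8). For PDF1.2A they were AT1G44830 (0.10), PDF1.2b (0.12), AT2G32140 (0.12), AT4G27657 (0.14) and AT5G52390 (0.15), with differences from -1.56 (AT4G27657) to -1.34 (AT5G52390). THI2.1 and PDF1.2A were 0.54 apart, and each had many closer genes, PDF1.2A ranking number 60 for THI2.1 and THI2.1 number 151 for PDF1.2A. AT1G35210 and AT2G32140 lay below the lower quartile of signal on the overexpressor arrays. With 4 arrays in 2 groups, likeness mostly reflects a similar size of change between the genotypes.

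Of the 8 measured genes nearest to these loci, 1 fell, 1 rose and 6 did not pass, near the 11.8% lower and 12.2% higher of all probe sets. Beside THI2.1, AT1G72250 (0.41), AT1G72270 (0.10) and AT1G72290 (-0.14) did not pass as reported, and AT1G72240 was lower by a difference of -0.51 (limma adjusted p = 0.0208), a call lost without overexpressor replicate 2 (-0.42), wild-type replicate 1 (-0.46) or wild-type replicate 2 (-0.57) and with either control centring. Beside PDF1.2A, AT5G44410 (0.079), AT5G44440 (0.023) and AT5G44450 (-0.14) did not pass as reported, while AT5G44400 was higher by 1.05 (SE 0.12, limma adjusted p = 0.00339).

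The sample was checked against markers of leaf and of tissues in which these peptides are also known. Of 57 listed markers 7 have a named probe set, and none of the 9 flower organ markers is among them. RCA, the Rubisco activase of leaf mesophyll, had log2 signals between 13.59 and 13.99, near the top of the range, and was higher in the overexpressors by 0.34 (limma adjusted p = 0.0491), a call lost in each of the 4 fits on 3 arrays (0.30 to 0.38). FMA, a guard cell factor, was also higher, by 0.67 (limma adjusted p = 0.00698), the other 5 did not pass as reported, and the part of cell makeup in the results was not tested. EXPA7, a root hair gene, lay between 3.43 and 3.78, near the lower quartile. The pollen factors AGL66 (3.205 to 3.362) and AGL65 (5.10 to 5.43) did not pass as reported, with differences of 0.0032 and 0.0087, and the part of flower tissue in the THI2.1 result was not tested beyond them.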

How the data were processed

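Shoot RNA was measured on 4 Affymetrix arrays after labelling with a 3′ in vitro transcription kit, per the labels' protocols. The deposited values are linear signal intensities, 1 for each probe set on each array, made with RMA per the submitters' processing notes; neither its version nor the step back from log2 is given in the sources used here. Their log2 was tested for genotype, with no other term, by limma 3.58.1 (R 4.3.3; lmFit, then eBayes with 2 residual and 4.24 prior degrees of freedom). Tests were two-sided, with Benjamini-Hochberg adjustment across 22746 probe sets and a threshold of 0.05; 64 control probe sets were left out. Median signal was 39.2 to 40.8 per array, and precision is limited by how few arrays there are. No detection calls were used.

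Genes come from the platform annotation, updated by Entrez identifier from TAIR10.1. The list genes were matched by symbol, then by synonym. The text names THI2.1 and PDF1.2A, all measured genes of a list with up to 6 measured and otherwise the 4 with the smallest and 2 with the largest p, the 5 most alike genes, the nearest 2 measured genes on each side, and the 2 highest and 2 lowest of the family; the other family values stand as counts, except THI2.2, named after its values were seen, as were the tissue markers. Genes within 25% of a member's length were added after seeing the data. Length removal used lowess (span 0.5, 4 signal bins) over 13367 nuclear probe sets. The members and lists were chosen with earlier results of these data known. The fit was also run on simulated data with independent errors, few changed probe sets and no length trend. That setting differs from these arrays. In all 17 alternatives were tried. Sequences of the peptides and promoters are not used here.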

Additional observations from a re-analysis of the deposited data

How the results depend on the processing

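THI2.1 and PDF1.2A kept their direction under all 17 alternatives and their call under 16. They lost it with ordinary statistics (log2 differences unchanged at -2.01 and -1.49, adjusted p = 0.0828 and 0.108 in ordinary t-tests). Those tests use only the 2 residual degrees of freedom, without the 4.24 prior ones of limma. Their SE was 0.0437 for THI2.1 and 0.115 for PDF1.2A, against 0.0960 and 0.113 as reported. With 1 array left out the log2 differences of THI2.1 and PDF1.2A ranged from -2.05 to -1.97 and from -1.57 to -1.40. The lone array then took its variance from the other genotype. With the replicate number as a block (replicate block) 3612 probe sets and 5 list genes passed. No common deviation was seen for arrays that share a number (r = -0.0410 across probe sets). From 4 arrays, 1 such correlation cannot show that pairing is absent. In the replicate block fit THI2.1 (limma adjusted p = 0.00862) and PDF1.2A (0.0120) still passed. The 5460 calls became 3318 to 3586 with 1 array left out, 14193 with poly-A centring, 8563 with hybridization control centring, 5 with ordinary statistics, 2650 for nuclear genes of known length (chosen after seeing the data), 2685 for 1 probe set a gene, 2087 with the length trend removed and 2240 at an adjusted p under 0.01. The 9 calls in the jasmonate and peptide lists became 5 with the length trend removed, 0 with ordinary statistics, 4 at an adjusted p under 0.01 and 5 to 6 with 1 array left out. Fewer arrays or probe sets, a stricter threshold and fewer residual degrees of freedom belong to the construction of these fits. Control centring changed both the scale and the variance estimate (with the poly-A controls, 1 SE for all probe sets), and for it and for length removal the cause was not tested.

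Of the values for other named genes, 621 kept both direction and call status. Another 42 turned in sign, whatever their call, and of those that kept it 67 lost the call and 23 gained it. Among the values that turned, AT1G76640 passed as higher with poly-A centring (limma adjusted p = 0.0451). With poly-A and hybridization control centring, signs turned to 0.512 and 0.168 for PDF2.5, 0.497 and 0.153 for DGL, 0.427 and 0.0831 for SAG101, 0.544 and 0.200 for AT1G76640, 0.474 and 0.130 for AT1G72290 and 0.476 and 0.132 for AT5G44450, 0.379 and 0.0351 for THI2.2 and 0.530 and 0.186 for EXPA7, and with poly-A centring alone to 0.106 for AT1G72240. With median centring AT5G44440 was -0.0103, AGL65 -0.0245 and AGL66 -0.0301, and AGL65 was -0.0330 with quantile normalization. With the length trend removed AIM1 was -0.155, EIN3 -0.0684, THI2.2 0.0345, EXPA7 0.00710, AGL65 -0.169 and AGL66 -0.00337. With 1 array left out, values ranged from -0.358 to 0.117 for DGL, -0.0631 to 0.270 for AT1G72270, -0.290 to 0.449 for AT5G44410, -0.186 to 0.232 for AT5G44440, -0.214 to 0.00193 for PDF2.5, -0.157 to 0.175 for AGL65, -0.262 to 0.0867 for EXPA7, -0.0752 to 0.0815 for AGL66 and -0.364 to 0.217 for AT1G76640; the cause was not tested. Without detection calls, how far the dim genes lie above background is unknown.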
